A study of Mus musculus with 6 samples.

Results

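The 10 genes described here are well-known targets of glucocorticoid and fasting signals, measured in mouse bone marrow with and without the Polycomb gene Cbx2. They are Fkbp5, Tsc22d3, Per1, Zbtb16, Sgk1, Txnip, Ddit4, Angptl4, Pdk4 and Klf9, taken by symbol from the 22838 genes of the deposited table, and all 10 were found there. RNA came from the marrow of tibia and femur of 3-week-old mice of mixed 129/C57BL/6 strain. One group was wild type and the other was Cbx2-/-, with 3 animals and 3 libraries each. The mean body weight was 12.3 g for the wild-type and 4.0 g for the Cbx2-/- animals, per the labels. The labels do not describe the Cbx2 allele, the feeding state, the hour of sampling or circulating hormone. Values are FPKM, fragment counts scaled to transcript length and library size, which makes levels comparable between genes of different length.

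Glucocorticoids are adrenal steroids released under stress and in fasting. They enter cells and bind the glucocorticoid receptor, which is encoded by Nr3c1. The hormone-bound receptor leaves its chaperone complex, enters the nucleus and binds DNA at inverted repeats known as glucocorticoid response elements. Fasting also lowers insulin, which lets FoxO transcription factors enter the nucleus, and raises free fatty acids, which activate PPAR receptors. The 10 genes are reached by one or more of these routes in many tissues. In bone marrow, glucocorticoids are known to deplete lymphoid precursors, restrain osteoblasts and favour fat cell formation.

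Promoter sequence is shown first for Sgk1 and Txnip, whose windows hold letters of the glucocorticoid response element. Some of the letters marked here also occurred in Tsc22d3, Fkbp5, Per1 and Klf9, which were not called higher in Cbx2-/- marrow. Each line gives the 250 bases before a RefSeq start site (RefSeq build GRCm38.p6, plus strand). Capitals mark matches to the letters ACANNNTGT or AGAACA (the core and a single arm of the glucocorticoid response element), CACGTG (the E-box, used by clock and glucose-sensing factors) and GTAAACA (the FoxO motif), read on both strands. Matches may overlap, as an E-box and an arm do near the start of the Sgk1 window.
Sgk1, chr10:21993640-21993889: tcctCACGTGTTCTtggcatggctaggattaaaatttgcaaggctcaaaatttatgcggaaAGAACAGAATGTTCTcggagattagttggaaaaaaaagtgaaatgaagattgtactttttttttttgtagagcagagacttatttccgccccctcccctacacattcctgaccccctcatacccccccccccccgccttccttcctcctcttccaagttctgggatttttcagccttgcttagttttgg
Txnip, chr3:96557707-96557956: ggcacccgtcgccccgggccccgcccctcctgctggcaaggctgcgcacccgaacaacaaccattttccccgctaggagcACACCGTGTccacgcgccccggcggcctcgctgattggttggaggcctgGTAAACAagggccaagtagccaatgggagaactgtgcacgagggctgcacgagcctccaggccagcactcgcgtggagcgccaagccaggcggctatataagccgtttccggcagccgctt

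The Sgk1 window holds the complete inverted repeat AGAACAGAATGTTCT, with -1 counted as the base before the start site, between -189 and -175. This repeat of the arm with 3 bases between was searched after the matches had been seen, and 3 of the 32851 promoter windows in the RefSeq table hold it. In Txnip, the core letters lie at -170 to -162 and the FoxO letters at -121 to -115. Promoter windows of 300 bases were given for 8 of the 10 genes, 16 windows in all, of which 6 belong to Sgk1 and 3 to Tsc22d3. Angptl4 and Zbtb16 had no entry. The core letters occurred in Sgk1 and Txnip, 2 of the 8 genes, and in 7.9% of the 27025 genes of the table. The arm AGAACA occurred in Sgk1 and Tsc22d3, also 2 of the 8, and in 21.3% of all genes. E-box letters occurred in Fkbp5, Per1 and Sgk1 (8.09% of all genes), and FoxO letters in Klf9 and Txnip (4.05% of all genes). CCAAT, bound by NF-Y, was found in 7 of the 8 genes (41.1% of all genes) and GGGCGG, the GC box, in 6 (38.2% of all genes). The cyclic AMP response element TGACGTCA was in none of the 16 windows (2.03% of all genes). A match is a description of the letters, not a binding site shown in these cells.

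The libraries differed among themselves before any target was read. Summed FPKM ranged from 599601 to 741192, and Cbx2-/- replicate 3 had the lowest sum. Its log2 values correlated with those of the other Cbx2-/- libraries at 0.946 and 0.956, against 0.987 between those 2 and 0.986 to 0.989 between wild-type libraries. Summed FPKM of 10 skeletal muscle markers was 437 and 494 in Cbx2-/- replicates 1 and 2 and 13.8 in replicate 3, with 23.4 to 34.6 in wild type. Neutrophil and erythroid markers were abundant in every library, as the marrow label implies, and their sums did not overlap between genotypes. For 9 neutrophil markers the sum was 36567 to 41664 FPKM in wild-type and 52215 to 81226 FPKM in Cbx2-/- libraries, with 2 called higher. For 10 erythroid markers it was 2984 to 3591 and 1327 to 2130 FPKM, with 8 called lower. Cbx2 itself was at 2.9, 3.83 and 2.75 FPKM in wild-type and 2.11, 1.87 and 1.88 FPKM in Cbx2-/- libraries (limma adjusted p = 0.0558), and the labels do not say which part of the transcript the allele removes. Across 12006 tested genes, limma called 1057 higher and 998 lower in Cbx2-/- marrow. With the haemoglobin genes left out and the libraries rescaled, the split was 598 higher and 980 lower. Without Cbx2-/- replicate 3 it was 2069 and 1719, and without wild-type replicate 1, 2 or 3 it was 374 and 475, 391 and 478, and 367 and 542. Fewer cells of a type and less RNA per cell cannot be told apart in bulk marrow.

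Sgk1, Txnip and Angptl4 rose in Cbx2-/- marrow, and the other 7 targets did not pass the test. That made 3 of 10 higher and 0 lower by limma (adjusted p under 0.05), against 8.80% higher and 8.31% lower among all tested genes. At an unadjusted p under 0.05 the counts were also 3 and 0, and the share of all tested genes at that threshold was not counted. The groups did not overlap for the same 3 genes, a pattern with all Cbx2-/- libraries above all wild-type libraries that 21.4% of tested genes had. All 10 differences were positive, with a median of 0.66 on the log2(FPKM + 1) scale beside 0.02 over all tested genes. Most of that excess lay in 1 library, Cbx2-/- replicate 3, as the sample values below show.

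**Figure D1:**
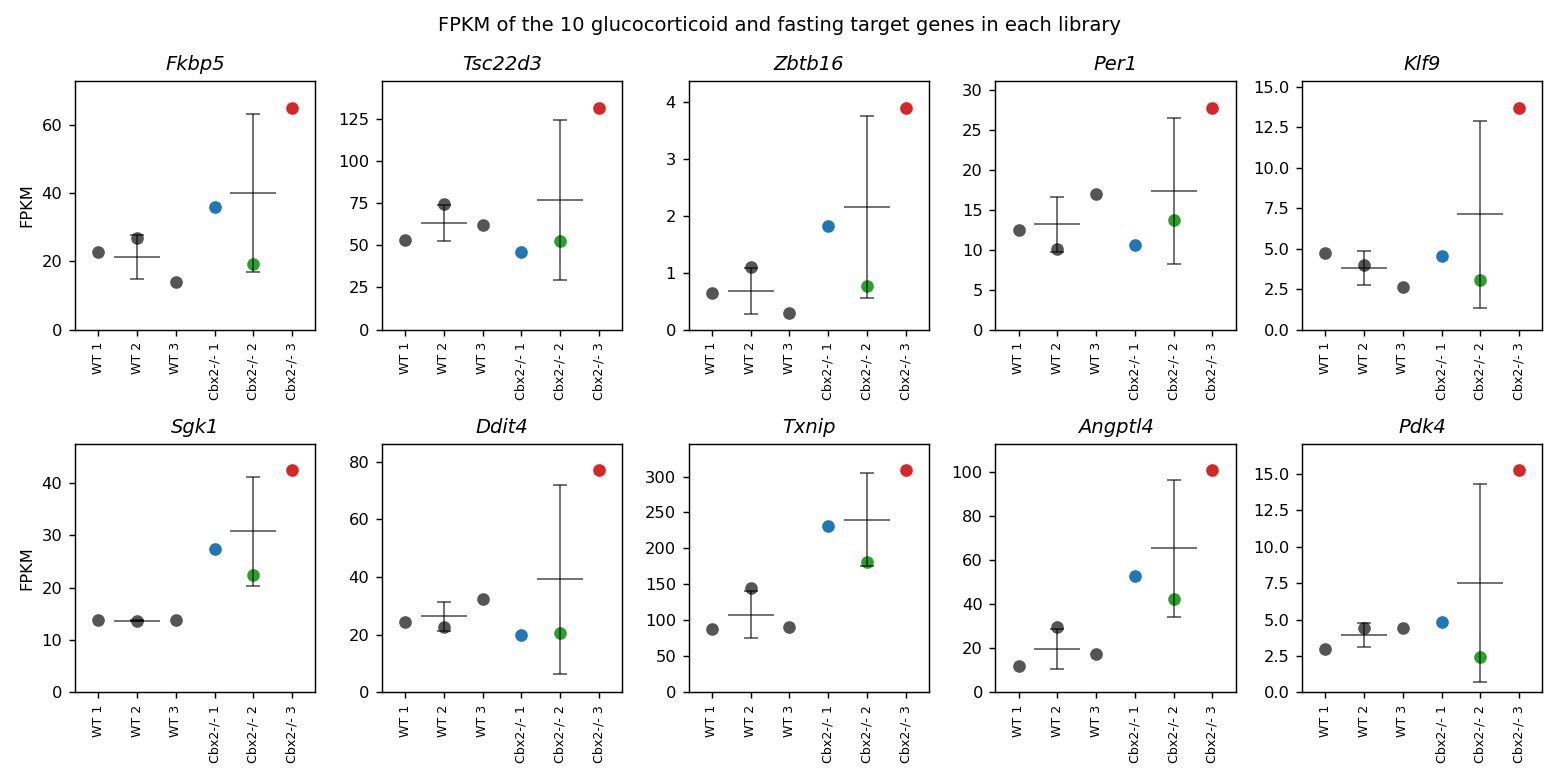
FPKM (linear axis from 0) of each of the 10 target genes in the 3 wild-type (WT) and 3 Cbx2-/- libraries; points are libraries, and the bar and whiskers are the group mean and SD over 3 libraries. Cbx2-/- replicate 3 (red) is the highest point in all 10 panels, and only in Sgk1, Txnip and Angptl4 are the other Cbx2-/- libraries also above every wild-type library.

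Sgk1 encodes a serine/threonine kinase that is induced by serum and glucocorticoids and acts on ion channels and FoxO proteins. Its FPKM was 13.7, 13.6 and 13.8 in wild-type and 27.4, 22.4 and 42.4 in Cbx2-/- libraries. The wild-type libraries were nearly level, at 13.7 ± 0.122 (SD, n = 3), and every Cbx2-/- library lay well above them, at 30.7 ± 10.4. The mean was 2.24-fold higher, a difference of 1.06 ± 0.22 in log2 units (SE; adjusted p = 0.0168 by limma). Without Cbx2-/- replicate 3 the difference was 0.81 with an adjusted p of 0.00237. The call was lost when any 1 wild-type library was left out (limma adjusted p = 0.0681, 0.0690 and 0.0683), with differences of 1.05 to 1.07. Its gene lies at chromosome 10, 21882184 to 21999903, plus strand (GENCODE vM21, GRCm38).

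Txnip encodes the thioredoxin-interacting protein, an arrestin-like protein that lowers glucose uptake and is induced by glucose and glucocorticoids. It was the most abundant of the 10, at 87.6, 145 and 90.6 FPKM in wild-type and 231, 181 and 309 FPKM in Cbx2-/- libraries. The lowest Cbx2-/- library stood above the highest wild-type library, wild-type replicate 2. The mean rose 2.23-fold from 108 ± 32.5 to 240.2 ± 64.4 FPKM (SD, n = 3 each), or 1.15 ± 0.28 in log2 units (SE; adjusted p = 0.0268 by limma). Leaving out wild-type replicate 1 or 3, or Cbx2-/- replicate 1, ended the call (limma adjusted p = 0.119, 0.111 and 0.0782), with differences of 1.02, 1.05 and 1.16. Txnip lies at chromosome 3, 96557957 to 96561883, plus strand, and the antisense gene Gm15441 overlaps it. Gm15441 reached at most 1.47 FPKM, and the labels do not say whether strand was used in quantification.

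Angptl4 encodes a secreted inhibitor of lipoprotein lipase that is induced by fatty acids through PPAR receptors, by fasting and by glucocorticoids. Its FPKM was 12, 29.5 and 17.5 in wild-type and 52.9, 42.2 and 101 in Cbx2-/- libraries, again without overlap. Angptl4 had the largest difference of the 10 targets, 3.32-fold between the means and 1.67 ± 0.39 in log2 units (SE; adjusted p = 0.024 by limma). Its call was lost without wild-type replicate 1 or 3 or Cbx2-/- replicate 1 (limma adjusted p = 0.093, 0.093 and 0.0573), with differences of 1.38, 1.64 and 1.77, while without Cbx2-/- replicate 3 the difference was 1.31 (limma adjusted p = 0.0152). The gene lies at chromosome 17, 33773750 to 33781830, minus strand.

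These 3 genes were thus the ones called with Cbx2-/- replicate 3 left out as well, when 17.2% of all tested genes were called higher. With the 11 haemoglobin genes of the table left out and the libraries rescaled, none of the 3 passed limma's threshold, at an adjusted p of 0.0662 for Sgk1, 0.0616 for Txnip and 0.0511 for Angptl4, while the differences stayed positive. Haemoglobin took 13.9% to 17.8% of summed FPKM in wild-type and 10.9%, 7.02% and 20.5% in Cbx2-/- libraries. Xist and Y-linked transcripts divide the libraries in the same way in both genotypes, with replicate 1 of each carrying the Y-linked transcripts. Within that pair, Sgk1 was 2.0-fold, Txnip 2.64-fold and Angptl4 4.42-fold higher in the Cbx2-/- library. Among the other libraries, 2 per genotype, the folds were 2.37, 2.07 and 3.04. A pair of single libraries allows no test.

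Fkbp5, Zbtb16 and Tsc22d3 are the members most used as readouts of receptor activity, and none of them passed. Fkbp5 encodes a co-chaperone that lowers the receptor's affinity for hormone and is itself induced by it. It was at 22.9, 26.9 and 14.1 FPKM in wild-type and 36.1, 19.3 and 65.1 FPKM in Cbx2-/- libraries. Replicates 1 and 3 of the Cbx2-/- group were above all wild-type libraries and replicate 2 was inside their range. The difference was 0.77 ± 0.42 (log2, SE, limma adjusted p = 0.248), with a 95% interval of -0.20 to 1.74.

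Zbtb16 encodes the zinc finger repressor PLZF, which is barely expressed in many tissues until glucocorticoid is given. It was the lowest of the 10, at 0.647, 1.10 and 0.287 FPKM in wild-type and 1.81, 0.765 and 3.90 FPKM in Cbx2-/- libraries. As for Fkbp5, replicate 3 was highest, replicate 1 next, and replicate 2 within the wild-type range. Its difference was 0.82 ± 0.36 (log2, SE; adjusted p = 0.16 by limma), which at values this near the pseudocount understates the ratio of means of 3.19. Fkbp5 and Zbtb16 both passed without Cbx2-/- replicate 2 (limma adjusted p = 0.0479 and 0.035), a fit that called 7.87% of all genes higher and 5 of the 10 targets.

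Tsc22d3 encodes GILZ, the glucocorticoid-induced leucine zipper protein that restrains inflammatory signalling in leukocytes. Its FPKM was 53.0, 74.6 and 61.7 in wild-type and 45.9, 52.6 and 132 in Cbx2-/- libraries. Replicates 1 and 2 lay below the lowest wild-type library and replicate 3 was 1.76 times the highest. The difference over all libraries was 0.13 ± 0.38 (log2, SE, limma adjusted p = 0.858). Without replicate 3 it was -0.34 (limma adjusted p = 0.135), so its direction rested on that library.

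Per1 and Klf9 are transcription regulators that respond within hours to glucocorticoids. Per1 encodes a repressor of the circadian clock, and was at 12.5, 10.1 and 17.0 FPKM in wild-type and 10.6, 13.7 and 27.8 FPKM in Cbx2-/- libraries. Only replicate 3 left the wild-type range, and the difference was 0.29 ± 0.34 (log2, SE, limma adjusted p = 0.616), or -0.09 without that library. Klf9 encodes a Krüppel-like repressor, and was at 4.75, 4.01 and 2.64 FPKM in wild-type and 4.56, 3.09 and 13.7 FPKM in Cbx2-/- libraries. The first 2 Cbx2-/- libraries were inside the wild-type range and the third was 2.89 times the next highest library. Klf9 differed by 0.56 ± 0.44 (log2, SE, limma adjusted p = 0.426), and by 0.02 without replicate 3.

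Ddit4 and Pdk4 are metabolic brakes. Ddit4 encodes REDD1, an inhibitor of the growth kinase complex mTORC1 that is induced by hypoxia, energy stress and glucocorticoids. It was at 24.3, 22.6 and 32.2 FPKM in wild-type and 20, 20.6 and 77 FPKM in Cbx2-/- libraries. Replicates 1 and 2 were below all wild-type libraries, and replicate 3 was 2.92 times the wild-type mean. Its difference was 0.28 ± 0.47 (log2, SE, limma adjusted p = 0.741), and -0.34 without replicate 3 (limma adjusted p = 0.132).

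Pdk4 encodes a kinase that shuts off pyruvate dehydrogenase and so spares glucose in fasting. Its FPKM was 2.96, 4.43 and 4.4 in wild-type and 4.81, 2.43 and 15.3 in Cbx2-/- libraries. Replicate 3 was 3.17 times the next highest library, the widest such gap of the 10. Replicate 1 lay just above and replicate 2 just below the wild-type range. Pdk4 differed by 0.49 ± 0.49 (log2, SE; adjusted p = 0.552 by limma), and by -0.13 without replicate 3. For all 7 targets that did not pass, the 95% interval of the difference reached from below 0 to 0.997 or more, so a missed threshold does not show equal levels.

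**Figure D2:**
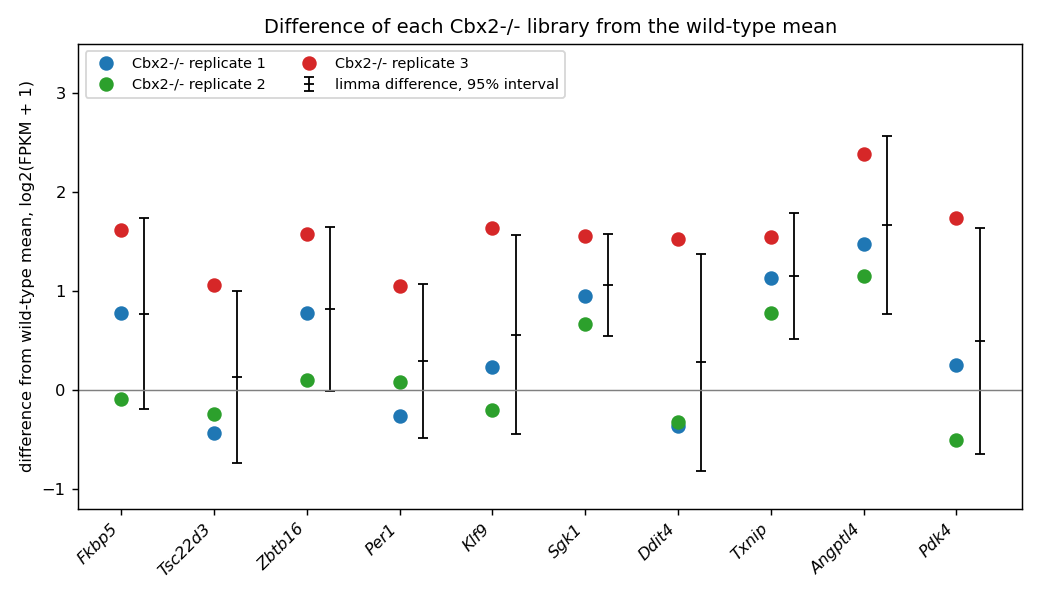
Difference of each Cbx2-/- library from the wild-type mean on the log2(FPKM + 1) scale (points), with limma's difference and its 95% interval (black), for the 10 targets. Replicate 3 lies 1.05 to 2.39 above the wild-type mean for all 10 genes, while replicates 1 and 2 are both at least 0.67 above it only for Sgk1, Txnip and Angptl4.

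Cbx2-/- replicate 3 was the highest of the 6 libraries for all 10 targets. That library was the highest for 26.0% of all tested genes, a larger share than any other library held. It was at least 1.5 times the next highest library for 9 of the 10 targets, Txnip being the exception at 1.33 times, and for 5.59% of all tested genes. Against the wild-type mean, replicate 3 was 2.08-fold (Tsc22d3) to 5.76-fold (Zbtb16) higher. The mean of replicates 1 and 2 ranged from 0.771 times (Ddit4) to 2.42 times (Angptl4) the wild-type mean. The median difference of the 10 targets from the wild-type mean was 0.51 in replicate 1, 0.00 in replicate 2 and 1.57 in replicate 3. Over all tested genes, the same medians were 0.05, 0.06 and -0.04. With replicates 1 and 2 left out, all 10 targets were called higher, when 17.0% of all tested genes were. That fit has 1 Cbx2-/- library, which is assumed to vary like the wild-type libraries.

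**Figure D3:**
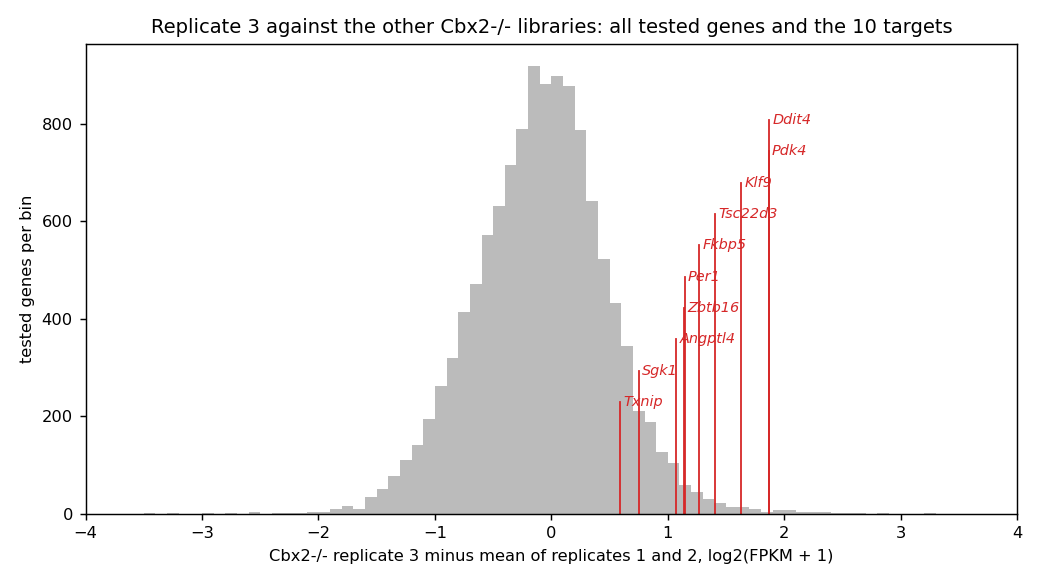
Difference between Cbx2-/- replicate 3 and the mean of replicates 1 and 2 on the log2(FPKM + 1) scale for 12006 tested genes (grey, bins of 0.1; 6 genes lie outside the axis) with the 10 targets marked in red. The targets lie between 0.59 (Txnip) and 1.87 (Ddit4), while the median of all genes is -0.07.

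Between the Cbx2-/- libraries, Ddit4, Pdk4 and Klf9 stood furthest apart, at ranks 32, 33 and 52 of 12006 by the difference of replicate 3 from the mean of replicates 1 and 2. Sgk1 and Txnip, which rose in all 3, ranked 743 and 1237. Replicate 3 also differed from the others in a way that followed transcript length. Its median difference from replicates 1 and 2 went from -0.45 in the quintile of genes with the shortest transcripts to 0.23 in the quintile with the longest (lengths for 11531 genes, 96.0%, a split added after the data were seen). Of the targets, Ddit4 was in the shortest quintile, 5 in the middle one, 3 in the next and Zbtb16 in the longest. The median of the middle quintile was -0.09 and that of the next 0.03. The targets ranged from 0.59 (Txnip, middle quintile) to 1.87 (Ddit4, shortest quintile), and the spread of values within each quintile was not computed. The part of transcript length in the targets' values was not tested.

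Markers of several cell types moved with that library or with the genotype. Summed FPKM of 9 T cell markers was 25.2 to 40.8 in wild-type, 27.2 and 35.2 in Cbx2-/- replicates 1 and 2, and 58.6 in replicate 3. That replicate was highest for 6 of the 8 tested markers, against 26.0% of all tested genes. None of the 8 passed limma's adjusted p (3 were higher at an unadjusted p under 0.05), and the highest value of any marker outside Lck was 8.81 FPKM, for Cd3g in replicate 3. Macrophage markers summed to 588 to 675 FPKM in wild-type and to 980, 827 and 1219 FPKM in the Cbx2-/- libraries. Of the 9 tested macrophage markers, Cd68, Cd5l and Mrc1 rose. Adipocyte markers summed to 233 to 437 FPKM in wild-type and 2098, 2472 and 2749 FPKM in the Cbx2-/- libraries. Most of that sum was Fabp4, at 140, 308 and 306 FPKM in wild-type and 1703, 1762 and 2146 FPKM in Cbx2-/- libraries. Of 9 tested adipocyte markers 8 rose. Adipoq, the adiponectin gene, did not pass, at 39.5, 63.8 and 45.5 against 54.8, 94.2 and 52.8 FPKM (limma adjusted p = 0.347). Lep, the leptin gene, was at 0 in 5 of the 6 libraries. Endothelial markers summed to 141 to 143 FPKM in wild-type and 296, 283 and 294 FPKM in the Cbx2-/- libraries, and 7 of the 10 rose, Plvap, the most abundant, 2.12-fold. Adipocyte, macrophage and endothelial sums were thus higher in all 3 Cbx2-/- libraries, as Sgk1, Txnip and Angptl4 were. The neutrophil sum given above was higher in all 3 as well. The 10 B cell precursor markers all fell. They summed to 110, 100 and 183 FPKM in the Cbx2-/- libraries against 939 to 1175 FPKM in wild-type. The part of any of these cells in the targets' values was not tested.

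The 10 targets did not all share one pattern across the libraries. Over the 6 libraries, Pearson's r of log2 values was between 0.36 and 0.99 for the 45 pairs, with a median of 0.76. Without Cbx2-/- replicate 3, the median was 0.10 and 21 of the 45 pairs were below 0. Fkbp5 and Zbtb16 kept together (0.99 over 6 libraries and 0.96 over 5), as did Txnip and Angptl4 (0.99 and 0.98) and Sgk1 with Txnip (0.93 and 0.87). Fkbp5 and Per1 were at 0.44 over 6 libraries and -0.93 over 5. These are descriptions over few libraries that share the genotype contrast and the library scale. Among 10201 named genes with a mean of at least 2 FPKM, the gene most like Fkbp5 was Jun (r = 0.99), that most like Ddit4 was Cd4 (0.99), that most like Sgk1 was Bmx (0.997) and that most like Angptl4 was Clec4b2 (0.995), all over 6 libraries. The number of genes with an r above 0.95 ranged from 18 for Per1 to 407 for Sgk1.

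Other glucocorticoid-induced genes were read from a list of 20, of which 18 were tested. Of these, 6 rose, 1 fell and 11 did not pass, with a median difference of 0.76 on the log2 scale beside 0.02 over all genes. Among all tested genes, 8.80% were called higher and 8.31% lower. Cdkn1c, which encodes a cyclin-dependent kinase inhibitor, rose 2.86-fold, with a mean of 7.06 ± 1.05 against 20.2 ± 0.668 FPKM (SD, n = 3 each; adjusted p = 0.00113 by limma). Anxa1, the gene of the anti-inflammatory protein annexin A1 and abundant in neutrophils, rose 2.59-fold (limma adjusted p = 0.00584). Hif3a rose from 0.867 ± 0.064 to 2.46 ± 0.58 FPKM, and Arrdc2, an arrestin family gene, fell 1.86-fold (limma adjusted p = 0.0103). Cebpd, Lcn2 and Gadd45b also rose, 1.70-fold, 2.19-fold and 1.45-fold. The neutrophil marker sum given above was higher in the Cbx2-/- libraries too. The part of neutrophils in these rises, those of Anxa1 and Lcn2 included, was not tested.

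Different patterns stood side by side in that list. Errfi1, a feedback inhibitor of epidermal growth factor receptor, was at 5.15, 5.95 and 9.41 FPKM in wild-type and 9.45, 8.75 and 35.0 FPKM in Cbx2-/- libraries (limma adjusted p = 0.189). Map3k6 was at 2.11, 2.29 and 2.21 against 4.78, 3.49 and 12.8 FPKM (limma adjusted p = 0.0694), and Cd163, a haemoglobin scavenger receptor gene of macrophages, at 6.32, 10.8 and 5.58 against 12.2, 8.89 and 32.8 FPKM. In all 3, replicate 3 was again the highest. The metallothionein genes went the other way within the Cbx2-/- group. Mt1 was at 181, 189 and 272 FPKM in wild-type and at 466, 363 and 216 FPKM in Cbx2-/- libraries, with replicate 3 the lowest of its group, and Mt2 was at 314, 325 and 146 FPKM in Cbx2-/- libraries, with replicate 3 again the lowest of the group. Replicate 3 was the highest library for 8 of the 18 genes and at least 1.5 times the next for 4, against 26.0% and 5.59% of all tested genes. Errfi1, Map3k6, Cd163, Mt1 and Mt2 were named after their values were seen.

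The receptor gene was within the spread between libraries, while its partner gene H6pd was called higher. Nr3c1 was at 9.61, 10.4 and 9.02 FPKM in wild-type and 8.98, 8.93 and 11.4 FPKM in Cbx2-/- libraries, a difference of 0.01 ± 0.14 (log2, SE, limma adjusted p = 0.974). The sign of that difference turned with median-ratio rescaling and with the haemoglobin genes left out. Of the 10 tested genes of the list, only H6pd passed, rising from 7.15 ± 0.547 to 18.8 ± 2.22 FPKM (SD, n = 3 each, limma adjusted p = 0.00155). At an unadjusted limma p under 0.05, 3 were higher and 0 lower, with no share of all tested genes counted at that threshold. H6pd encodes the enzyme that supplies reducing power to Hsd11b1, which regenerates active glucocorticoid inside cells. Hsd11b1 was at 21.2, 16.6 and 18.0 FPKM in wild-type and 34.3, 45.4 and 23.2 FPKM in Cbx2-/- libraries (limma adjusted p = 0.0558). Its groups did not overlap, with all Cbx2-/- libraries above all wild-type ones, as for 21.4% of all tested genes. In contrast to the targets, its lowest Cbx2-/- value was that of replicate 3. Hsd11b2, which inactivates the hormone, was under the filter and so not tested. It was at 1.07, 0.565 and 0.624 FPKM in wild-type and 0.179, 0.137 and 0.293 FPKM in Cbx2-/- libraries. The groups did not overlap, but the values were low, and the share of all tested genes with that pattern was not counted. Fkbp4, the co-chaperone that works against Fkbp5, was at 97.0, 86.1 and 79.0 FPKM in wild-type and 94.4, 79.1 and 39.0 FPKM in Cbx2-/- libraries (limma adjusted p = 0.446). Replicate 3 was the lowest library for Fkbp4 and 4 other chaperone genes, Hsp90aa1, Hsp90ab1, Ptges3 and Stip1, 5 of the 10 tested genes of the list. In other lists it was lowest for 0 of 18 (other glucocorticoid-induced genes), 6 of 17 (fatty acid use) and 4 of 8 (partners and regulators of Txnip). The share over all tested genes was not counted, so this cannot be called particular to chaperones.

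FoxO factors and their targets moved in different directions. Of 16 tested, 2 rose, 3 fell and 11 did not pass, with a median difference of 0.03. Among all tested genes, 8.80% were called higher and 8.31% lower. The factor genes Foxo3 and Foxo1 fell 2.01-fold and 2.03-fold (limma adjusted p = 0.014 and 0.0221), and the growth arrest gene Gadd45a fell 1.73-fold. Cited2 and Bnip3, also known as hypoxia-responsive genes, rose 1.95-fold and 2.68-fold. Against 26.0% and 5.59% of all tested genes, replicate 3 was highest for 11 of the 16 and at least 1.5 times the next library for 7. Among these was Klf15, a glucocorticoid and fasting-induced regulator of amino acid breakdown, at 1.55, 1.32 and 0.824 FPKM in wild-type and 2.79, 2.54 and 10 FPKM in Cbx2-/- libraries (limma adjusted p = 0.0728). Pik3ip1, an inhibitor gene of PI3 kinase signalling, was at 10.5, 13.7 and 12.4 against 10.9, 9.25 and 33.0 FPKM. Klf15 and Pik3ip1 were named after their values were seen.

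Of 17 tested genes of fatty acid use, 3 rose, Pparg and Acot1 among them, 0 fell by limma (1 at an unadjusted p under 0.05) and 14 did not pass, with a median difference of 0.23. By limma's adjusted p, 8.80% of all tested genes were called higher and 8.31% lower. Pparg, the receptor gene of fat cell formation, rose 2.14-fold (limma adjusted p = 0.0035), and Acot1, an acyl-CoA thioesterase gene, 3.65-fold (limma adjusted p = 0.00562). None of the 17 was 1.5 times the next library in replicate 3 (5.59% of all tested genes), and Ppara, the fasting receptor gene of liver, was at most 0.207 FPKM. Cpt1a, the entry enzyme of mitochondrial oxidation, was at 14.9, 25 and 26.4 FPKM in wild-type and 34.3, 33.0 and 30.6 FPKM in Cbx2-/- libraries (limma adjusted p = 0.114).

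The partners of Angptl4 in lipoprotein handling included several genes that rose. Gpihbp1, the endothelial anchor of lipoprotein lipase, was at 15, 15.4 and 12.1 FPKM in wild-type and 61.7, 60.5 and 102 FPKM in Cbx2-/- libraries, 5.28-fold higher (limma adjusted p = 0.00113). The 10 endothelial markers, of which 7 rose, had a median difference of 1.08 on the log2 scale, and the part of endothelial cells in the level of Gpihbp1 was not tested. Lpl, the lipase that Angptl4 inhibits, rose from 30 ± 10.8 to 89.1 ± 25.1 FPKM (SD, n = 3 each, limma adjusted p = 0.0115), a call lost without wild-type replicate 1 or 3 (highest adjusted p = 0.0567). Lipe, the hormone-sensitive lipase gene, rose 2.30-fold and Pnpla2, the first lipase of fat breakdown, 2.71-fold. Pcsk6, a protease gene, fell 2.17-fold. Of the 8 tested, 4 rose, 1 fell and 3 did not pass, while 8.80% of all tested genes were called higher and 8.31% lower. Pnpla2 is also among the adipocyte markers that rose, so these counts are not separate.

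Clock genes were read because Per1 belongs to the clock as well as to the glucocorticoid targets. Arntl, which encodes the clock activator BMAL1, fell from 12.3, 13.4 and 12 FPKM in wild-type to 2.19, 1.51 and 3.71 FPKM in Cbx2-/- libraries, 5.09-fold lower (limma adjusted p = 0.00163). All Cbx2-/- libraries were far below the wild-type ones, and the call held in all 20 alternatives, with differences of -2.39 to -1.52. Per2 and Per3, the paralogs of Per1, rose 2.15-fold and 1.98-fold (limma adjusted p = 0.0439 and 0.0404), and Cry2 1.60-fold (0.026). These calls were near the threshold: those of Per2 and Per3 were lost in every fit without 1 wild-type library. Nr1d1, a repressor of Arntl, was at 5.85, 6.03 and 5.15 FPKM in wild-type and 6.96, 8.97 and 10.6 FPKM in Cbx2-/- libraries (limma adjusted p = 0.058). Dbp, a clock output factor gene, was at 8.29, 5.76 and 8.66 against 3.98, 8.82 and 5.63 FPKM, with the groups overlapping. Of 13 tested clock genes, 3 rose, 1 fell and 9 did not pass, while 8.80% of all tested genes were called higher and 8.31% lower. Replicate 3 was highest for 9 of the 13 (26.0% of all tested genes), including Per2, Per3, Cry1 and Nr1d2.

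**Figure D4:**
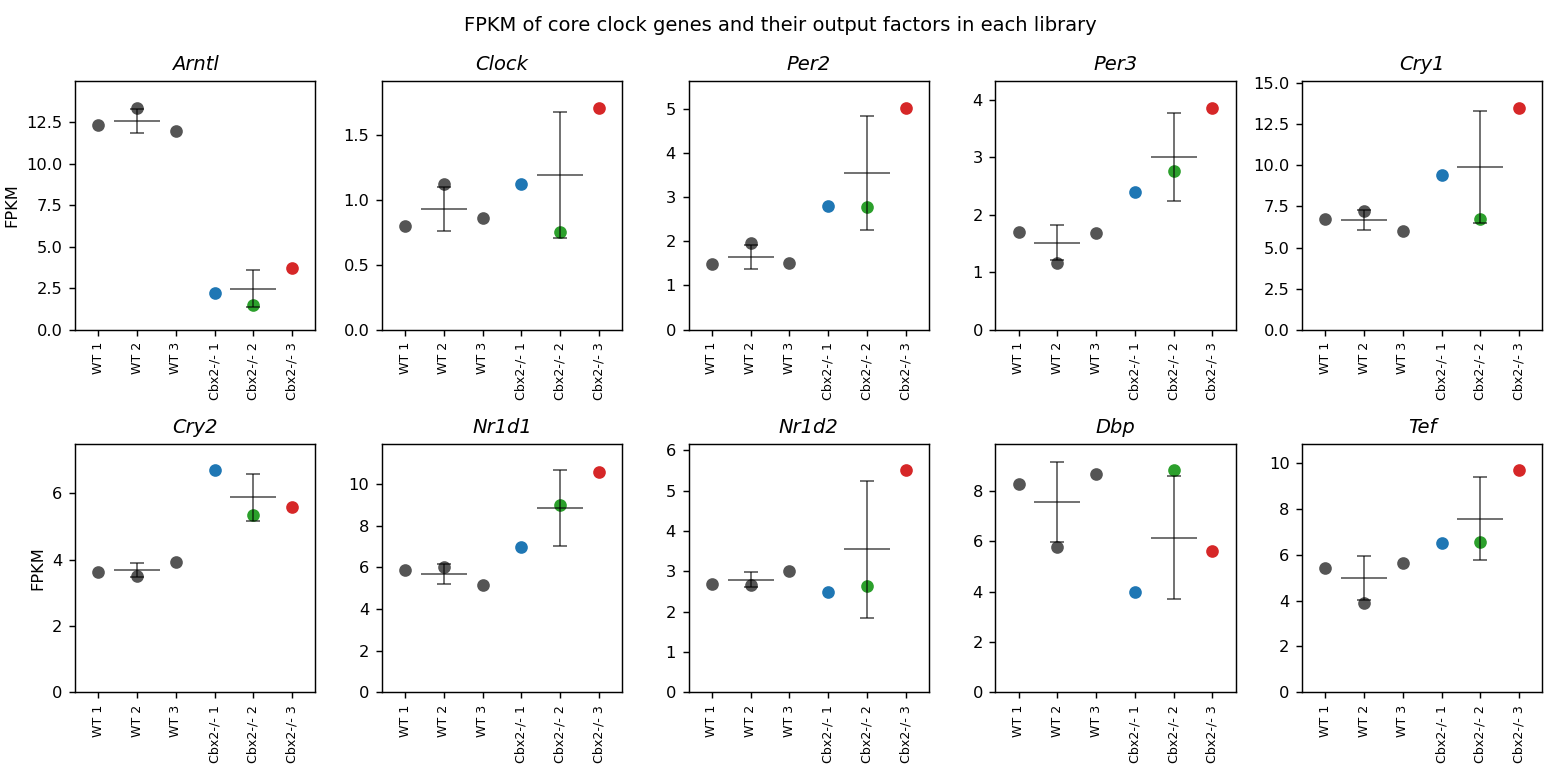
FPKM (linear axis from 0) of 10 clock genes in the 3 wild-type (WT) and 3 Cbx2-/- libraries; points are libraries, and bars with whiskers are group means and SD over 3 libraries. Arntl is at 12 to 13.4 FPKM in wild-type and at most 3.71 FPKM in Cbx2-/- libraries, and Dbp overlaps between the groups.

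The remaining lists gave fewer calls. Of 8 tested thioredoxin and Mondo genes, the partners and regulators of Txnip, 0 rose by limma (0 also at an unadjusted p under 0.05) and 1 fell. This was Txnrd2, the mitochondrial thioredoxin reductase gene, which fell 2.36-fold (limma adjusted p = 0.0225). Arrdc4, the closest paralog of Txnip and like it a target of glucose-sensing factors, was at 7.78, 13.5 and 11.2 FPKM in wild-type and 13.6, 12.8 and 25.9 FPKM in Cbx2-/- libraries (limma adjusted p = 0.198). None of 8 tested genes around mTORC1 passed limma's adjusted p (Deptor and Sesn2 had an unadjusted p under 0.05, 1 in each direction), and Ddit4l, the paralog of Ddit4, was under the filter at 0.441 to 1.37 FPKM. Sgk3, the paralog of Sgk1, was at 11, 13.5 and 9.37 against 8.54, 8.80 and 7.78 FPKM (limma adjusted p = 0.136), opposite in sign to Sgk1. Of the Pdk4 paralogs, Pdk1 rose from 6.72 ± 0.981 to 11.4 ± 1.13 FPKM (SD, n = 3 each, limma adjusted p = 0.0187), while Pdk2 and Pdk3 did not pass. Tsc22d1, a paralog of Tsc22d3, was at 172, 133 and 108 against 65.9, 88.9 and 84.8 FPKM (limma adjusted p = 0.0502). Among 8 tested immediate early genes, which also respond to handling of tissue, Fos and Junb rose 3.6-fold and 1.59-fold and Btg2 fell 2.66-fold.

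Among the 28 genes named here by rule that passed, 12 also passed in each fit that left out 1 library. These were Cdkn1c, Anxa1, Hif3a, H6pd, Pparg, Acot1, Cited2, Arntl, Gpihbp1, Lipe, Fos and Btg2. The other 16, Sgk1, Txnip and Angptl4 among them, each lost the call without a wild-type library. Gadd45a, Cry2, Per2, Per3, Txnrd2, Pdk1 and Junb lost it without any 1 of the 3 (highest adjusted p = 0.147, for Per3). Arrdc2 lost it without replicate 2 (adjusted p = 0.055), Foxo3 and Pcsk6 without replicate 1 or 2 (highest adjusted p = 0.0639), and Bnip3 without replicate 2 or 3 (highest adjusted p = 0.0639). Foxo3, Pcsk6, Pdk1, Txnrd2, Junb, Cry2, Per2 and Per3 also lost it without Cbx2-/- replicate 1, all by limma.

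**Figure D5:**
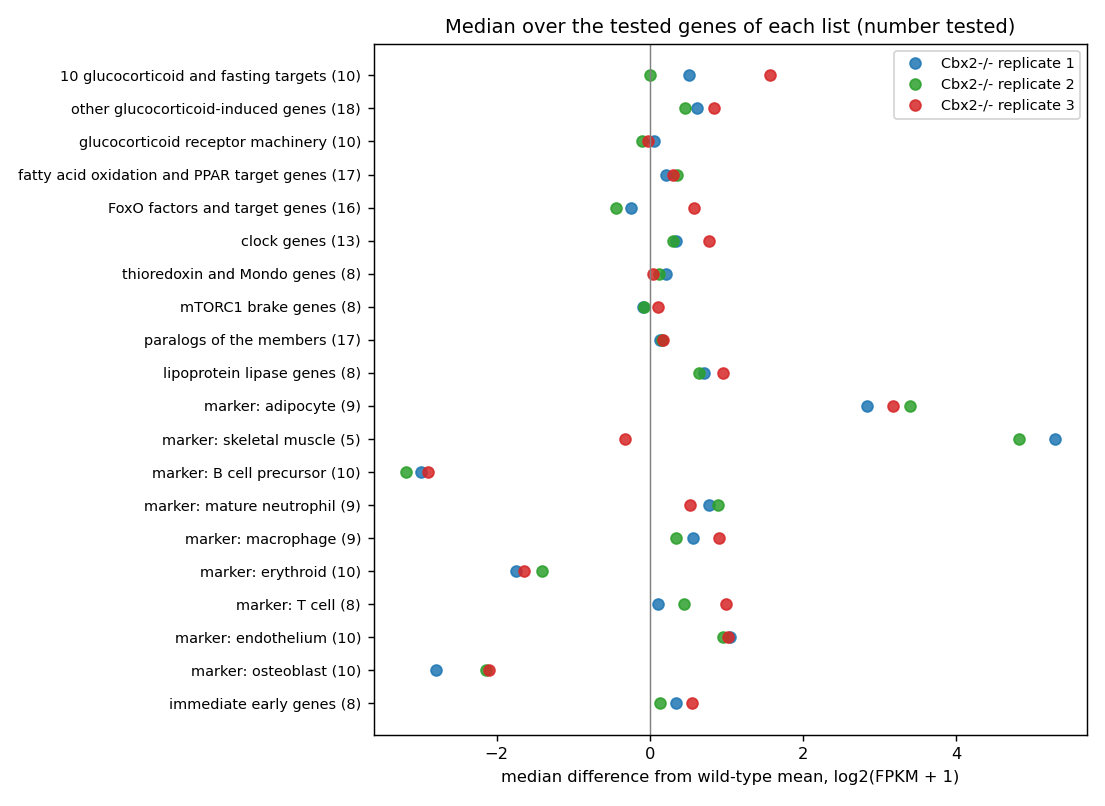
Median over the tested genes of each list (number tested in brackets) of the difference from the wild-type mean, on the log2(FPKM + 1) scale, for each Cbx2-/- library. For the 10 targets the medians are 0.51, 0.00 and 1.57 in replicates 1, 2 and 3, and for the 16 FoxO genes -0.24, -0.45 and 0.58, while the adipocyte, B cell precursor and osteoblast markers lie on the same side of 0 in all 3.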

How the data were processed

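The authors deposited 1 table of FPKM values with a column for each of the 6 libraries. Per the labels' protocols, libraries were stranded, poly(A)-based and read as 50-base single-end reads. The submitters' processing notes list the build mm10, TopHat2 2.1.0 and Cufflinks 2.2.1 besides FastQC 0.11.5. No source used here gives the gene annotation, strand setting or read totals, so depth is unknown.

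Genes reaching 1 FPKM in 3 or more libraries were tested as log2(FPKM + 1) with limma 3.58.1 in R 4.3.3 (mean-variance trend, two-sided, Benjamini-Hochberg over 12006 genes, threshold 0.05). All 10 targets passed that filter. Folds are ratios of mean FPKM. On simulated data for Cbx2-/- against wild-type, with 200 of 12006 genes changed, 52% of changes of 1 log2 unit and 91% of 2 log2 units were recovered, and 9 of 152 calls were false. The simulation gave both genotypes the same spread and drew noise separately for each gene. These rates may therefore not hold for the real libraries, where Cbx2-/- replicate 3 stood apart.

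The targets, lists and tests were chosen with earlier results of these data known. Named are the 10 targets, Cbx2, Nr3c1, Hsd11b1, Fkbp4, up to 4 genes per list by adjusted p, paralogs of the targets with a mean of at least 2 FPKM, and marker genes; Cd3g and other genes outside this rule were named after their values were seen. Values of 1 gene that passed are not reported here. Lists are described by counts and medians, without a set test, to be read beside the shares of all tested genes called higher (8.80%) and lower (8.31%). Those shares are at an adjusted p under 0.05. No share of all tested genes was counted at an unadjusted p under 0.05, so counts at that threshold have no background. In 20 alternatives the pseudocount, filter, scaling, limma settings, covariates and libraries were changed. Promoters are RefSeq's, positions GENCODE vM21.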

Additional observations from a re-analysis of the deposited data

How the results depend on the processing

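The targets called higher (3) were 1 with no filter on low values, 0 with the haemoglobin genes left out, 10 with the skeletal muscle covariate and 10 with both muscle-bearing Cbx2-/- libraries left out, which like the covariate sets mainly replicate 3 against wild type. Over the fits that each left out 1 library, the count ranged from 0 to 5. Genes called higher over the whole table (1057) were 598 with the haemoglobin genes left out, 634 with the replicate block, 2137 with the muscle covariate and 2047 with both libraries left out, and ranged from 367 to 2069 when 1 library was left out. Genes called lower (998) were 2686 with the covariate and 2714 with both libraries left out, and ranged from 475 to 1719. The share of calls that were higher was 51.4%, and 37.9% with the haemoglobin genes left out. The causes were not tested.

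Over the fits without 1 library, the log2 difference ranged from -0.34 to 0.41 for Tsc22d3, -0.0924 to 0.57 for Per1, -0.34 to 0.60 for Ddit4, -0.13 to 0.99 for Pdk4 and -0.0977 to 0.0646 for Nr3c1, with the lowest value of each in the fit without Cbx2-/- replicate 3. Nr3c1 also changed sign with median-ratio rescaling (-0.0153), with the haemoglobin genes left out (-0.0025) and without wild-type replicate 3 (-0.0344). No target was called lower in any of the 20 alternatives. Txnip was not called with quantile normalization (limma adjusted p = 0.0505) or with no filter (0.0512), nor Angptl4 with no filter (0.0566).

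The labels do not say whether replicate numbers pair the animals. Deviations of same-numbered libraries from their group means correlated at 0.19, -0.18 and -0.10, and those of differently numbered libraries at -0.26 to 0.27. So few libraries cannot decide whether the animals were paired. With the replicate block, 2 targets were called higher, Sgk1 and Angptl4, and Txnip had a limma adjusted p of 0.0702, with 634 genes higher and 734 lower overall. With 3 libraries per genotype, an exact permutation test cannot go below p = 0.1, and the depth behind low values such as those of Zbtb16 is unknown.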
